A study of Mus musculus with 12 samples.

Results

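The septin family was followed in injured mouse spinal cord as the 10 members Septin2 to Septin11, chosen by gene name, which occupied 11 of the 57180 rows of the deposited tables because Septin2 had 2 rows. All 11 rows passed the filter on low counts that left 17820 rows for testing. The 3 further mouse septin genes were read as levels beside them: Septin1 had 1.34 to 3.97 CPM, its counts scaled to library size, Septin12 had 1 count in 1 library and Septin14 was at 0 in all 12 libraries. Septin2 was singled out because 1 of its rows was known to fall in ovariectomised mice, so every Septin2 difference below is a description without a test, and the other 9 members were tested.

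The libraries are bulk RNA-seq of the T9-T10 spinal cord of female C57BL/6J wild-type mice, taken with about 0.5 cm of tissue on either side of a clip-compression lesion. In the OVX8_SCI7 group the ovaries were removed and the cord was injured 8 weeks later, in the OVX2_SCI7 group it was injured 2 weeks after ovary removal, and in the SCI7 group it was injured without ovariectomy. Every cord was collected 7 days after injury, there were 4 biological replicates in each group, and all mice were labelled 8 weeks old, without saying at which step. All 3 groups carry the injury, none of the libraries analysed here is labelled as uninjured or sham-operated, and bulk tissue cannot tell fewer cells of a type apart from less RNA per cell.

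Septins are GTP-binding proteins that join end to end into rods and filaments on membranes, actin and microtubules. A rod takes its subunits from homology groups that can replace each other: Septin2, Septin4 and Septin5 form one group, Septin6, Septin8, Septin10 and Septin11 another, Septin3 and Septin9 another, and Septin7 stands alone as the subunit that almost every rod needs. The filaments guide the cleavage furrow of dividing cells, form a diffusion barrier at the base of cilia, stiffen the inner layer of mature myelin and sit at presynaptic terminals, so neurons, oligodendrocytes, astrocytes and macrophages of a lesion can all contribute septin RNA.

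Both Septin2 rows describe 1 locus on the plus strand of chromosome 1. In the GENCODE M21 annotation (GRCm38, an older build than the GRCm39 named in the submitters' processing notes), ENSMUSG00000026276 spans chr1:93478964-93510260 with 13 transcripts and ENSMUSG00000116048 spans chr1:93478993-93509733 with 3 transcripts. All 3335 exonic bases of the 3-transcript model are also exonic in the 13-transcript model, which has 4644 more, and the complete coding sequence of 1083 bases (361 codons before the stop) is identical in both. The starts of the models lie 29 bases apart and their ends 527 bases apart. The sequence before and between the starts is shown because the models begin at different bases there. It covers chr1:93478743-93478993 on the plus strand of GRCm38.p6 (RefSeq), and the capitals run over the 30 bases from the first base of the 13-transcript model to the first base of the 3-transcript model:
Septin2 promoter: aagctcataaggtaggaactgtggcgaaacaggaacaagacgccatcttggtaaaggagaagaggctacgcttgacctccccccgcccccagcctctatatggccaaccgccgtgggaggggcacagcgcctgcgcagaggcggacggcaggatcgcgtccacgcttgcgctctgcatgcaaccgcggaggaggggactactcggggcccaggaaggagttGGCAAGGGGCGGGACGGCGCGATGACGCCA

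The capitals hold a GC box (GGGCGG, searched on both strands), a motif present in 35.7% of 32851 mouse promoter windows of 300 bases and in 10 of the 16 windows listed for septins, from 6 of 7 genes (Septin2, Septin4, Septin8, Septin9, Septin10 and Septin11). The palindromic estrogen response element (GGTCA, any 3 bases and the reverse complement of GGTCA) was in 0 of the 16 septin windows, against 0.0700% of all windows. With 23 of 32851 windows holding it, 16 windows are too few to tell its absence from the background. The E-box CACGTG was in 2 of 16, in Septin7 and Septin11, against 7.15% of all windows. These are matches of letters only. No windows were matched by name to Septin3, Septin5 and Septin6.

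**Figure D1:**
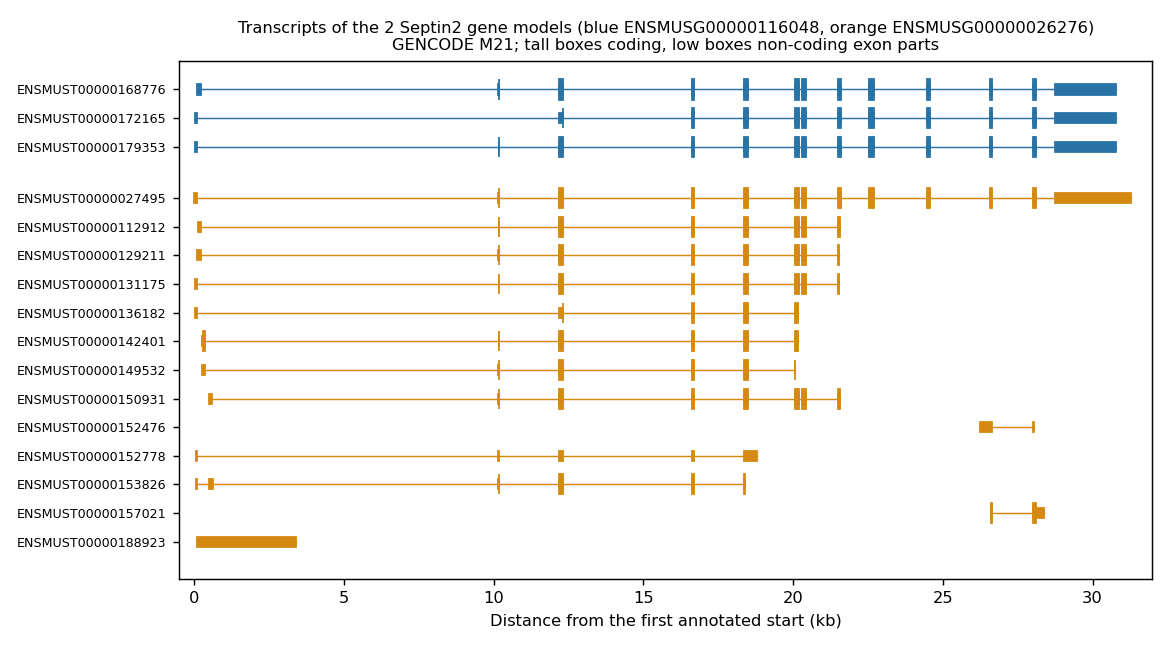
Exons of the transcripts of both Septin2 gene models against the distance from the first annotated start in kb, with coding parts as tall boxes and other exon parts as low boxes. The 3 transcripts of ENSMUSG00000116048 (blue, above) end 527 bases before the last annotated base and overlap the exons of the 13 transcripts of ENSMUSG00000026276 (orange, below), most of which are shorter.

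The libraries differed in ways that run with the groups. Totals were 18279548 to 31781728 estimated counts in OVX8_SCI7, 19223185 to 20371555 in OVX2_SCI7 and 18222809 to 20524251 in SCI7. The Spearman correlation across 12419 genes between a gene's GC content and its deviation from its own mean was 0.18 to 0.87 in the OVX8_SCI7 libraries, -0.44 to 0.54 in OVX2_SCI7, and -0.85 to -0.53 in SCI7. Mitochondrial transcripts took 2.2 to 3.36% of counts in OVX8_SCI7, 2.36 to 8.33% in OVX2_SCI7 and 5.35 to 9.35% in SCI7. Replicate 1 of OVX2_SCI7 stood apart from its group and lay with SCI7 in both measures, at a correlation of -0.44 and 8.33%. For the calls of septin members in OVX2_SCI7 against SCI7 the fit without it is also given. Means, ranges and shares of OVX2_SCI7 include it.

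**Figure D2:**
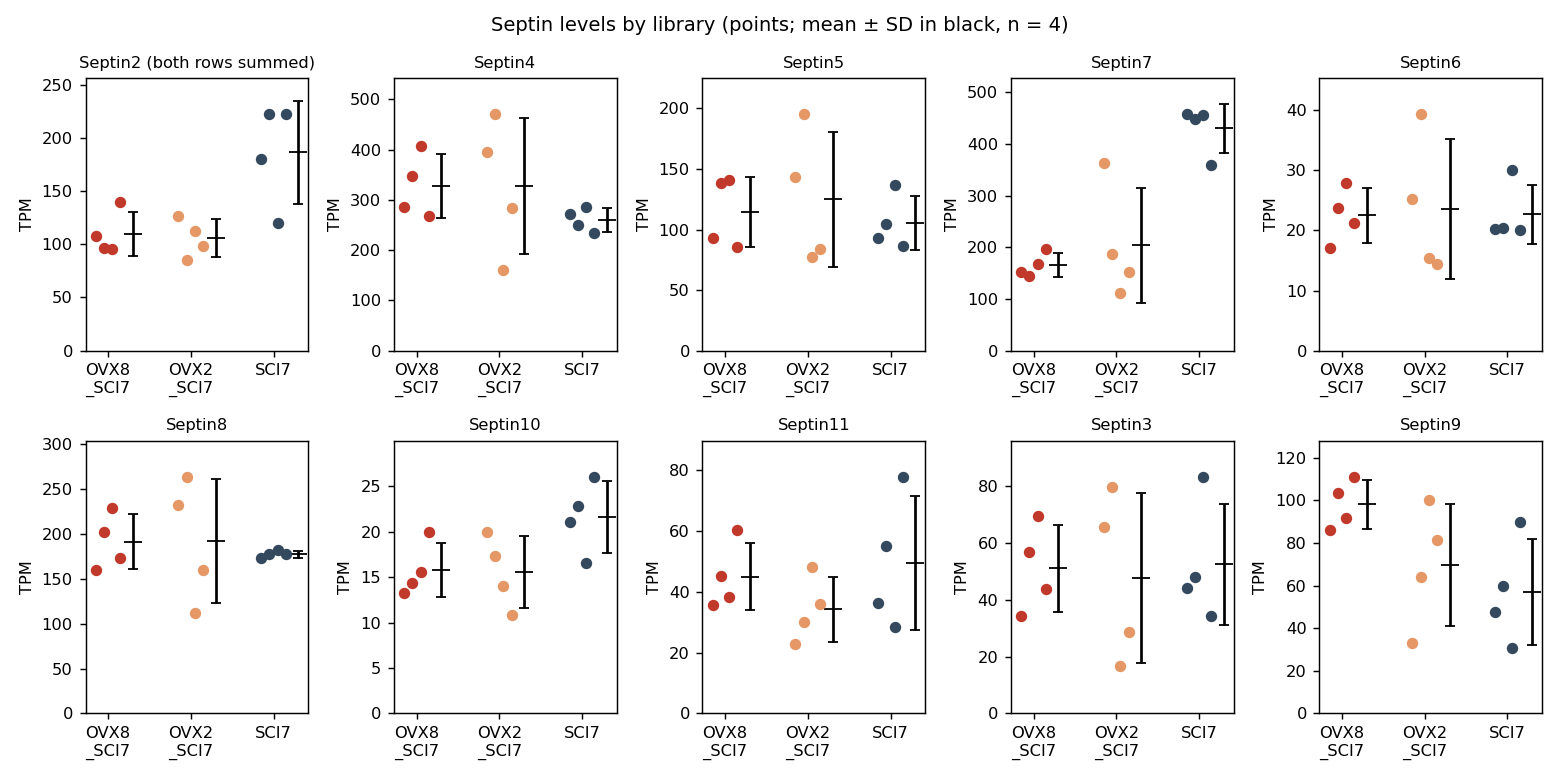
TPM of each septin gene in each library (points, TPM on the vertical axis) with the group mean ± SD in black, for OVX8_SCI7, OVX2_SCI7 and SCI7 from left to right, n = 4 each. Septin7 separates OVX8_SCI7 (145 to 196 TPM) from SCI7 (358 to 458 TPM), while Septin8, Septin6 and Septin3 have overlapping groups.

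In TPM, a level corrected for transcript length and comparable between genes, the 10 members together made up 1140.2 ± 124 TPM in OVX8_SCI7, 1145 ± 339 TPM in OVX2_SCI7 and 1363 ± 35.9 TPM in SCI7 (SD, n = 4 each). In OVX8_SCI7 the order by mean level ran Septin4 (327 TPM), Septin8 (191), Septin7 (165), Septin5 (114), Septin2 (109.8), Septin9 (98.1), Septin3 (51.1), Septin11 (44.9), Septin6 (22.5) and Septin10 (15.8), all in TPM. In SCI7 Septin7 came first at 429.9 ± 47.9 TPM, followed by Septin4 at 260.4 ± 23.5 TPM and Septin2 at 186 ± 48.3 TPM (SD, n = 4). The ranges of Septin7 and Septin4 did not overlap in SCI7, nor did those of Septin4 and Septin2 or of Septin8 and Septin5, whereas every neighbouring pair from Septin5 down to Septin10 overlapped. In OVX8_SCI7 neighbours were separate between Septin4 and Septin8, Septin7 and Septin5, Septin9 and Septin3, and Septin11 and Septin6. In OVX2_SCI7 every neighbouring pair overlapped.

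The 2 rows of Septin2 differed in opposite directions between the groups. The row of ENSMUSG00000116048 had 62.1, 33.8, 46.6 and 81.5 CPM in OVX8_SCI7, 148, 50.6, 93.8 and 74.9 CPM in OVX2_SCI7, and 284, 279.6, 149 and 210.5 CPM in SCI7. All OVX8_SCI7 libraries lay below all SCI7 libraries in this row, and replicate 1 of OVX2_SCI7 came close to the lowest SCI7 library. How many of all rows separate these groups in this way was not computed, here or for the separations below. The row of ENSMUSG00000026276 had 139.9, 125, 107 and 145 CPM in OVX8_SCI7, 58.5, 76.5, 133 and 127 CPM in OVX2_SCI7, and 65.9, 80.9, 39.7 and 136 CPM in SCI7. Most SCI7 libraries lay below all OVX8_SCI7 libraries in this row, and replicate 4 of SCI7 lay among them.

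The log2 fold change of OVX8_SCI7 over SCI7 was -2.04 (SE 0.36) for the row of ENSMUSG00000116048 and 0.68 (SE 0.35) for the row of ENSMUSG00000026276. For OVX2_SCI7 over SCI7 the same rows had -1.33 (SE 0.35) and 0.29 (SE 0.34), and for OVX8_SCI7 over OVX2_SCI7 they had -0.72 (SE 0.35) and 0.39 (SE 0.34). The share of Septin2 counts assigned to the 3-transcript model was 29.5 ± 6.09% in OVX8_SCI7, 47.5 ± 16.2% in OVX2_SCI7 and 74.6 ± 9.34% in SCI7 (SD, n = 4 each). The shares of OVX8_SCI7 (21.2 to 35.9%) and SCI7 (60.8 to 81.2%) did not overlap, and replicate 1 of OVX2_SCI7, at 71.7%, lay within the SCI7 range. Estimated counts of both rows were not whole numbers (farther than 0.001 from one) in 12 of 12 libraries, so reads that fit both models were divided between them by estimate.

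**Figure D3:**
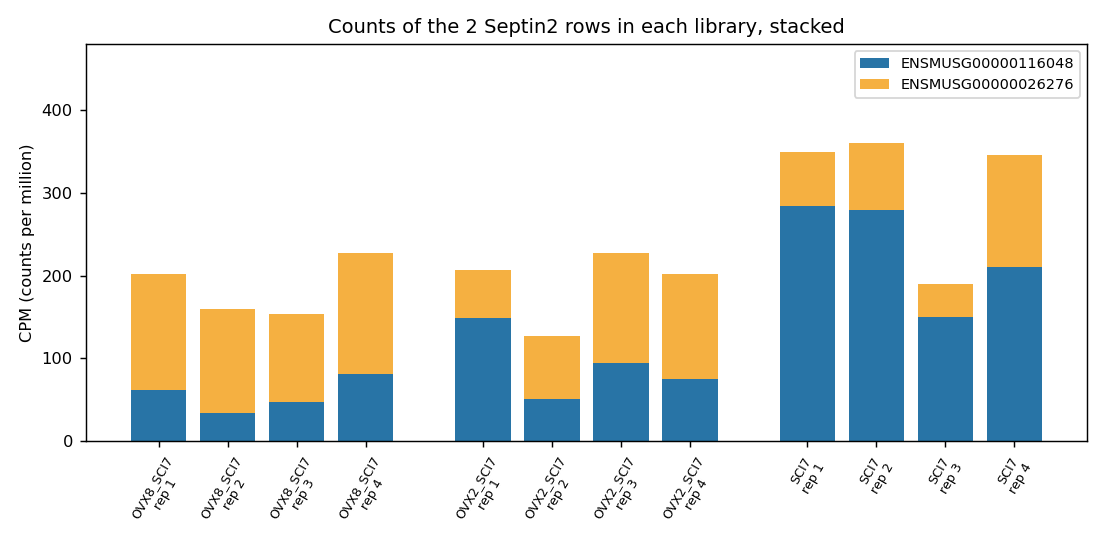
CPM of the Septin2 rows stacked for each library, with ENSMUSG00000116048 below (blue) and ENSMUSG00000026276 above (orange), in the order OVX8_SCI7, OVX2_SCI7 and SCI7. The blue part is 33.8 to 81.5 CPM in OVX8_SCI7 and 149 to 284 CPM in SCI7, and the full bar of SCI7 replicate 3 (189 CPM) lies among those of OVX8_SCI7.

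Summed over both rows, Septin2 had 202, 159, 154 and 227 CPM in OVX8_SCI7, 207, 127, 227 and 202 CPM in OVX2_SCI7, and 349.8, 361, 189 and 346 CPM in SCI7. The sum was lower in OVX8_SCI7 than in 3 SCI7 libraries, and replicate 3 of SCI7 lay among the OVX8_SCI7 values. The log2 fold change of the sum was -0.75 (SE 0.24) for OVX8_SCI7 over SCI7, -0.71 (SE 0.24) for OVX2_SCI7 over SCI7 and -0.04 (SE 0.24) for OVX8_SCI7 over OVX2_SCI7. When the fit took out each library's own dependence on GC content and transcript length (the GC and length offset), the sum stood at -0.0049 in OVX8_SCI7 over SCI7, while the rows kept opposite signs at -1.37 for ENSMUSG00000116048 and 1.40 for ENSMUSG00000026276. The longest coding transcripts of the rows had GC contents of 41.3% and 40.6%.

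Of 230 symbols with more than 1 row, 18 had 2 rows that were both tested, and 6 of these had rows of opposite sign in OVX8_SCI7 over SCI7. The gap of 2.73 (log2) between the Septin2 rows ranked 2 of 18, behind Rpl37rt, and the median gap was 0.73. Septin2 was singled out with the fall of 1 of these rows already known, and that fall is part of the gap. Its rank was therefore partly fixed by that choice and is a description only. Septin2 was the only 1 of the 18 pairs in which both rows averaged at least 1000 counts.

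Of the 9 other members, 2 fell and 0 rose in OVX8_SCI7 against SCI7 by edgeR's quasi-likelihood test (Benjamini-Hochberg adjusted p under 0.05 over all 17820 rows). Of all rows 27.5% passed that test, 11.9% higher and 15.6% lower, so 2 of 9 is near the background. The median log2 fold change of the 9 was -0.04, beside 0.01 over all rows tested. Septin7, the subunit common to most rods, fell by 1.39 on the log2 scale, and Septin10, a member of the Septin6 group, fell by 0.60.

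Septin7 had 235, 199, 216 and 251 CPM in OVX8_SCI7, 492, 232, 180.4 and 239 CPM in OVX2_SCI7, and 713, 595, 599 and 458 CPM in SCI7. Every OVX8_SCI7 library lay below every SCI7 library, and replicate 1 of OVX2_SCI7 alone of its group reached the SCI7 range. The share of all rows separated like this was not computed, and 43.2% of all rows tested had an unadjusted p under 0.05 by edgeR in OVX8_SCI7 against SCI7. The Septin7 values are as follows. The log2 fold change of Septin7 was -1.39 (SE 0.28, edgeR adjusted p = 0.0143) for OVX8_SCI7 over SCI7 and -1.05 (SE 0.28, edgeR adjusted p = 0.0534) for OVX2_SCI7 over SCI7. Without replicate 1 of OVX2_SCI7 the value for OVX2_SCI7 over SCI7 was -1.46 and passed, with an edgeR adjusted p of 0.00187. Without replicate 2 of OVX8_SCI7 the call against SCI7 was lost (-1.33, edgeR adjusted p = 0.0573), and 0 rows of the whole table passed in that comparison by edgeR, with 6068 at an unadjusted p under 0.05. Under the GC and length offset it was -0.53 and did not pass (edgeR adjusted p = 0.198). Septin7 made up 14.6 ± 2.35% of the summed septin TPM in OVX8_SCI7, 17.3 ± 5.57% in OVX2_SCI7 and 31.5 ± 3.13% in SCI7 (SD, n = 4 each).

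Septin10 was the least abundant member, with 17.1, 14.9, 16.1 and 22.0 CPM in OVX8_SCI7, 23.6, 17.6, 17.7 and 15.7 CPM in OVX2_SCI7, and 30.8, 27.1, 19.4 and 29.0 CPM in SCI7. The OVX8_SCI7 and SCI7 libraries overlapped, since replicate 4 of OVX8_SCI7 lay above replicate 3 of SCI7. Its log2 fold change was -0.60 (SE 0.19, edgeR adjusted p = 0.0361) for OVX8_SCI7 over SCI7, and -0.51 (SE 0.19, edgeR adjusted p = 0.0934) for OVX2_SCI7 over SCI7. Without replicate 1 of OVX2_SCI7 the value for OVX2_SCI7 over SCI7 was -0.66 and passed, with an edgeR adjusted p of 0.0190. The call of OVX8_SCI7 against SCI7 was lost in 11 of 23 alternatives, among them leaving out replicate 1, 2 or 4 of SCI7 or replicate 1, 2 or 3 of OVX8_SCI7, with edgeR adjusted p of 0.0671 to 0.111. Under the GC and length offset the value was -0.17 and did not pass (edgeR adjusted p = 0.572).

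The remaining members of the Septin6 group did not pass. Septin8, which is found in myelin and at presynaptic terminals, had 255 to 297 CPM in OVX8_SCI7, 225 to 311 CPM in OVX2_SCI7 and 259 to 288 CPM in SCI7. Its log2 fold change was 0.03 (SE 0.14) for OVX8_SCI7 over SCI7. Septin6, a partner of Septin2 and Septin7 in the canonical rod, had 36.3 to 45.1 CPM in OVX8_SCI7, 30.5 to 55.9 CPM in OVX2_SCI7 and 31.9 to 53.4 CPM in SCI7, with a log2 fold change of -0.04 (SE 0.21) for OVX8_SCI7 over SCI7. Septin11, known from dendrites and spines, had 93.4 to 144 CPM in OVX8_SCI7, 56.2 to 139 CPM in OVX2_SCI7 and 64.0 to 191 CPM in SCI7. The groups overlapped for all 3 genes, with edgeR adjusted p of 0.885 for Septin8, 0.905 for Septin6 and 0.783 for Septin11 in OVX8_SCI7 against SCI7.

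Septin4 and Septin5, of the same homology group as Septin2, had positive values in OVX8_SCI7 over SCI7 that did not pass and that were negative under the GC and length offset. Septin4, a myelin septin and the most abundant member in OVX8_SCI7, had 237, 254, 284 and 179 CPM in OVX8_SCI7, 278, 306, 134 and 238 CPM in OVX2_SCI7, and 212, 165, 187 and 156 CPM in SCI7. Its log2 fold change for OVX8_SCI7 over SCI7 was 0.41 (SE 0.24, edgeR adjusted p = 0.209). Septin5, which binds syntaxin at presynaptic terminals, had 121, 157, 150.3 and 90.3 CPM in OVX8_SCI7, 110.4, 194, 101 and 104 CPM in OVX2_SCI7, and 87.3, 80.8, 114 and 76.1 CPM in SCI7. Its log2 fold change for OVX8_SCI7 over SCI7 was 0.53 (SE 0.25, edgeR adjusted p = 0.117). Both genes overlap other genes by position in the GENCODE M21 annotation, Septin4 with Gm11492 and Septin5 with Gp1bb and Gm49601. The estimated counts of Septin4 and Septin5 were not whole, by the same tolerance of 0.001, in 12 of 12 libraries, so their values are uncertain to that extent.

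In the Septin3 group the 2 members differed in sign. Septin9, which bundles actin and microtubules and acts late in cell division, had 161, 178, 145 and 173 CPM in OVX8_SCI7, 56.6, 95, 203 and 152 CPM in OVX2_SCI7, and 87.4, 99.1, 52.0 and 144 CPM in SCI7. In CPM all OVX8_SCI7 libraries lay narrowly above all SCI7 libraries, the lowest at 145.0 CPM in OVX8_SCI7 and the highest at 144.1 CPM in SCI7. In TPM these groups overlapped, at 86.05 to 111.15 TPM in OVX8_SCI7 and 30.8 to 90.06 TPM in SCI7. The log2 fold change of 0.78 (SE 0.36) did not pass (edgeR adjusted p = 0.121). Under the GC and length offset it was 0.23 (edgeR adjusted p = 0.740). With replicates 1 and 2 of OVX2_SCI7 left out of the fit, Septin9 (0.78, edgeR adjusted p = 0.0301) and Septin5 (0.54, edgeR adjusted p = 0.0393) passed in OVX8_SCI7 against SCI7, for 4 of 9 members, beside 41.9% of all 18426 rows tested in that fit. Septin3, a neuronal septin, had 92.7, 125, 142 and 89.6 CPM in OVX8_SCI7, 169, 159, 48.3 and 81.3 CPM in OVX2_SCI7, and 132, 118, 198 and 79.1 CPM in SCI7, with a log2 fold change of -0.23 (SE 0.38, edgeR adjusted p = 0.661) for OVX8_SCI7 over SCI7.

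**Figure D4:**
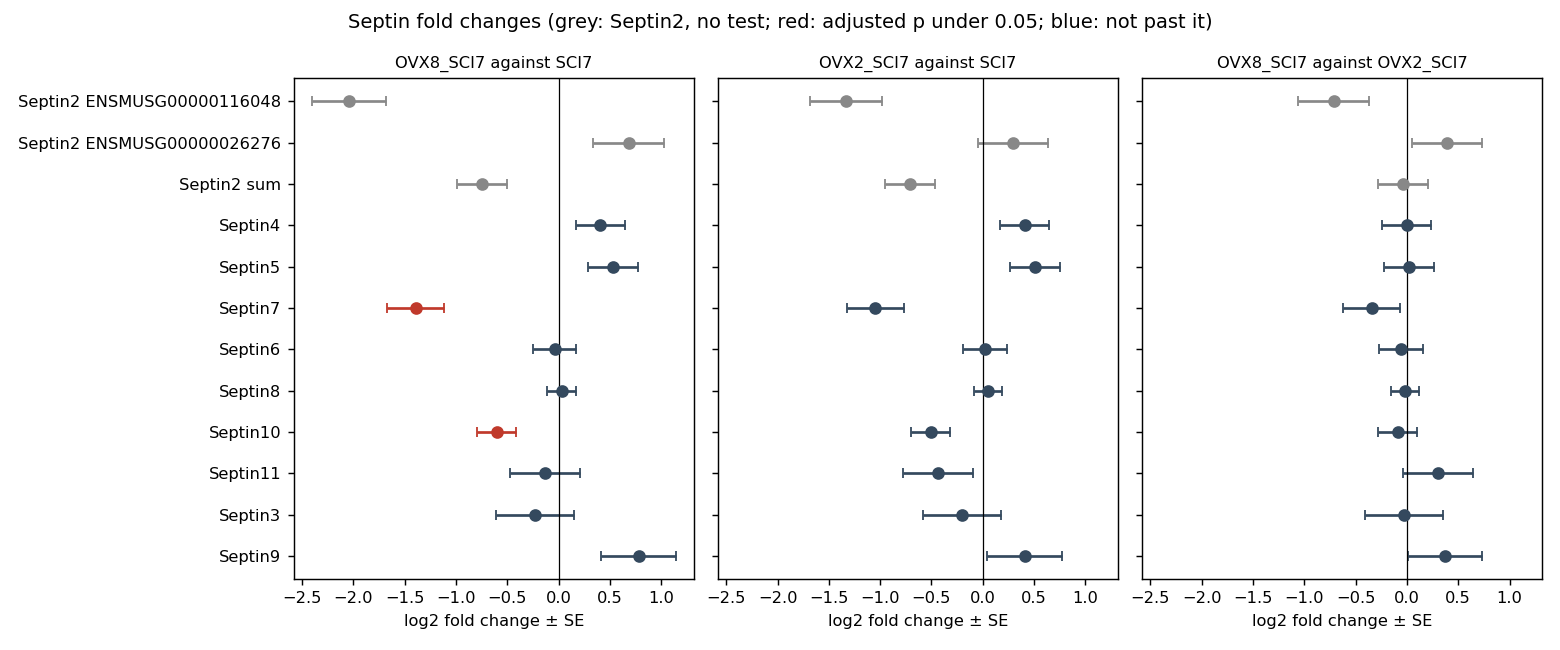
Log2 fold change ± SE of each Septin2 row, their sum and the 9 other members in OVX8_SCI7 against SCI7, OVX2_SCI7 against SCI7 and OVX8_SCI7 against OVX2_SCI7. Septin7 (-1.39) and Septin10 (-0.60) passed in the first of these, none of the 9 passed in the others, and the Septin2 rows (grey, untested) lie on either side of 0 in each.

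In OVX2_SCI7 against SCI7, 0 of the 9 members passed by edgeR, beside 0% of all 17820 rows, and Septin7 and Septin10 were the 2 with an unadjusted p under 0.05, as were 5787 of all rows. DESeq2 called 1 of the 9 and 3581 rows, limma-voom 1 and 704. Without replicate 1 of OVX2_SCI7, 2 of the 9 and 6264 rows passed. In OVX8_SCI7 against OVX2_SCI7, 0 of the 9 passed by edgeR, beside 0% of all rows, and 0 of the 9 and 393 of all rows had an unadjusted p under 0.05. DESeq2 called 0 of the 9 and 3 rows, limma-voom 0 and 0. The log2 fold changes of OVX8_SCI7 over OVX2_SCI7 ran between -0.34 for Septin7 and 0.37 for Septin9. The comparisons with SCI7 share the SCI7 libraries.

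The fold changes were ordered by GC content. The longest coding transcripts held 39.4% GC in Septin7, 44.0% in Septin10, 46.6% in Septin6, 47.8% in Septin11, 50.4% in Septin3, 51.6% in Septin8, 53.5% in Septin4, 56.1% in Septin9 and 61.2% in Septin5. Across these 9 genes the Spearman correlation of GC content with the log2 fold change of OVX8_SCI7 over SCI7 was 0.92, and across the 11 rows with Septin2 it was 0.60. Genes are not independent replicates, and this is a description. The libraries' GC trends run the same way, and under the offset for them 0 of the 9 members and 0 of 17448 rows passed in OVX8_SCI7 against SCI7 by edgeR, with 2608 rows at an unadjusted p under 0.05. Under that offset Septin4 stood at -0.04 and Septin5 at -0.34, both on the log2 scale. The GC trend and the group cannot be told apart where all libraries of a group share the trend.

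**Figure D5:**
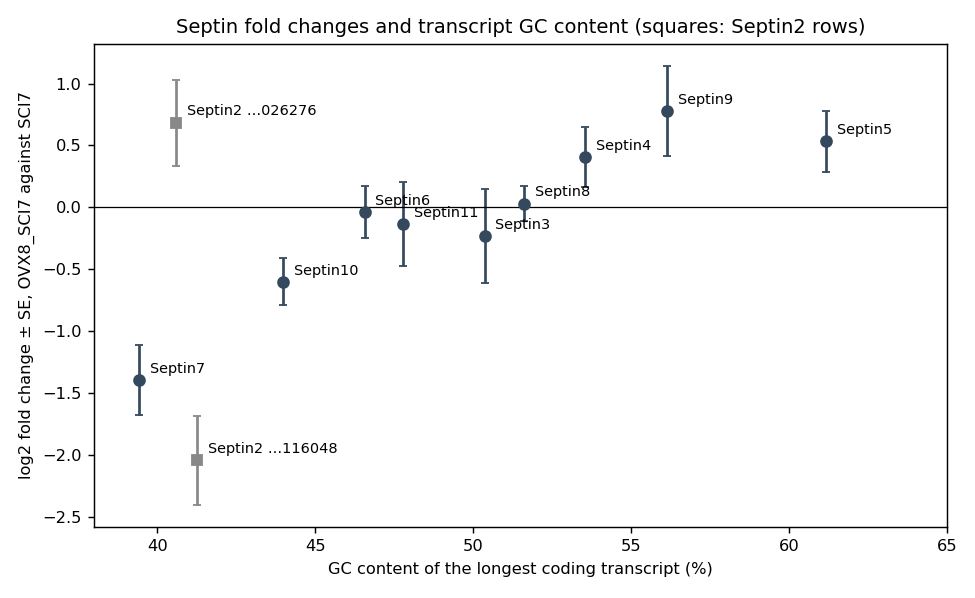
Log2 fold change ± SE of OVX8_SCI7 over SCI7 for each septin row against the GC content of its longest coding transcript in percent. The 9 circles climb from Septin7 (39.4% GC) at the lower left towards Septin9 (56.1%) and Septin5 (61.2%), and the squares of the Septin2 rows, at 41.3% and 40.6% GC, lie far apart.

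The mean effective length of each row, implied by the deposited counts and FPKM, is an average over its transcripts that also depends on the fragment lengths of each library. Septin5 had 1842 ± 5.84 bases in OVX8_SCI7, 1660.1 ± 248 bases in OVX2_SCI7 and 1448 ± 105 bases in SCI7 (SD, n = 4 each). Septin10 had 1680.2 to 1918 bases in OVX8_SCI7 and 1997 to 2168 bases in SCI7, Septin3 had 3621 ± 143 bases in OVX8_SCI7 and 4261 ± 124 bases in SCI7, and Septin7 had 2221 ± 12.4 bases in OVX8_SCI7 and 2312 ± 14.8 bases in SCI7. None of the 27 tests over 9 members and 3 comparisons passed: the smallest p of the exact two-sided permutation test was 0.0286, the smallest that 4 against 4 can give, at an adjusted p of 0.129. Even tests at that floor thus missed the threshold after adjustment over 27, so this outcome does not show that the lengths were alike. For Septin2, untested, the row of ENSMUSG00000026276 averaged 2665 bases in OVX8_SCI7 and 2345 bases in SCI7, and the row of ENSMUSG00000116048 averaged 2942 bases in OVX8_SCI7 and 3011 bases in SCI7.

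Septin2, summed, made up 9.77 ± 2.33% of the septin TPM in OVX8_SCI7, 9.96 ± 3.60% in OVX2_SCI7 and 13.7 ± 3.56% in SCI7 (SD, n = 4 each), and the groups overlapped. The share of Septin4 was 28.6 ± 3.28% in OVX8_SCI7 and 19.1 ± 1.68% in SCI7, without overlap between these groups. Septin4 was not alone in this. The share of Septin8 was 15.50 to 17.85% in OVX8_SCI7 and 12.57 to 13.37% in SCI7. For Septin9 it was 7.141 to 9.922% in OVX8_SCI7 and 2.248 to 6.794% in SCI7. The share of Septin7, given above, was lower in OVX8_SCI7 than in SCI7, also without overlap. The shares add up to a fixed total and are not independent of each other. Their lack of overlap has no background of other genes beside it.

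Across the 12 libraries, the summed Septin2 level (log2 CPM) was most like those of Adam10, Rhoa, Tmem123, Desi2 and Krcc1, with Pearson's r of 0.988 for Adam10 down to 0.980 for Krcc1 among 10869 genes averaging 10 CPM or more. The mean of the 9 other members was most like Nkx2-2 (0.907), Sox9, Sall1, Tmem108 and Fyn (0.870). Within the family, the row of ENSMUSG00000116048 was most like Septin10 (r = 0.908) and Septin7 (0.891), and the row of ENSMUSG00000026276 was most like Septin9 (0.961). Next came Septin6 with Septin3 (0.879) and Septin4 with Septin8 (0.867), and the lowest r was -0.834 for Septin6 and Septin11. All points share the libraries, their groups and their GC trends, so these values describe likeness only.

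The genes that work with septins were read from 5 lists of 45 genes in all. In OVX8_SCI7 against SCI7, 6 of the 45 rose and 3 fell by edgeR, beside 11.9% of all rows higher and 15.6% lower, and 0 were called in the other comparisons, beside 0% of all rows. Of the 6 Cdc42 and Borg genes, which direct septin assembly, 2 rose and 1 fell, with a median of 0.30. Cdc42 had 385 ± 77.4 CPM in OVX8_SCI7, 405 ± 84.5 CPM in OVX2_SCI7 and 659.6 ± 132 CPM in SCI7, a log2 fold change of -0.78 (edgeR adjusted p = 0.0264) in OVX8_SCI7 over SCI7. Cdc42ep4, a Borg protein that binds septins in glia, had 76.0 ± 6.54 CPM in OVX8_SCI7, 75.1 ± 22.1 CPM in OVX2_SCI7 and 48.9 ± 6.78 CPM in SCI7 (0.64, edgeR adjusted p = 0.0354). Under the GC and length offset Cdc42ep4 stood at -0.07.

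Of 12 genes of the ciliary transition zone, where septins bound the ciliary membrane, 3 rose and 2 fell, with a median of 0.23. B9d2 had 8.12 ± 1.54 CPM in OVX8_SCI7, 7.20 ± 2.17 CPM in OVX2_SCI7 and 3.84 ± 0.449 CPM in SCI7 (1.08, edgeR adjusted p = 0.0145), and Nphp4 had a log2 fold change of 0.87 (edgeR adjusted p = 0.0174). Of 9 myosin and actin genes 1 rose, Myh14 at 0.88 (edgeR adjusted p = 0.0351), while Diaph1 stood at 0.46 (edgeR adjusted p = 0.0807). Of 8 cytokinesis genes 0 passed by edgeR. Anln, the anillin that recruits septins to the cleavage furrow and to myelin, had 125 ± 7.65 CPM in OVX8_SCI7, 147 ± 75.8 CPM in OVX2_SCI7 and 221 ± 29.6 CPM in SCI7 (-0.82, edgeR adjusted p = 0.0543), and Rhoa stood at -0.52 (edgeR adjusted p = 0.0705). Of 10 presynaptic genes 0 passed, with Stx1a, the partner of Septin5, at 0.66 (edgeR adjusted p = 0.154) and Snap25 at -0.91 (edgeR adjusted p = 0.191). The medians were -0.24 for cytokinesis, 0.39 for myosin and actin, and 0.11 for presynaptic genes.

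Markers of cell types were read beside the septins. Of 77 marker genes in 12 lists, 73 were tested, and 6 rose and 3 fell in OVX8_SCI7 against SCI7 by edgeR, beside 11.9% and 15.6% of all rows. None of the 77 was at 0 in all 12 libraries. Of 9 oligodendrocyte and myelin markers 1 fell, Ermn (-1.33, edgeR adjusted p = 0.0354), and their median log2 fold change was -0.10, with 4 values above 0 and 5 below. Their summed level was 18382 to 24300.4 CPM in OVX8_SCI7, 14288 to 34259 CPM in OVX2_SCI7 and 20373 to 28894 CPM in SCI7. Of 7 microglia and macrophage markers, Csf1r (0.70, edgeR adjusted p = 0.0205) was 1 of 2 that rose and P2ry12 (-1.14, edgeR adjusted p = 0.0251) fell. The median log2 fold change of the 7 was 0.92, with 6 values above 0 and 1 below. Their summed level was 1748 to 2056 CPM in OVX8_SCI7, 827 to 2393 CPM in OVX2_SCI7 and 506 to 1352 CPM in SCI7, without overlap between OVX8_SCI7 and SCI7.

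Of 8 neuron markers 0 passed, with Map2 at -0.93 (edgeR adjusted p = 0.104) and Snap25 at -0.91 (edgeR adjusted p = 0.191), a median of 0.26, and 5 values above 0 and 3 below, and their summed level was 2591 to 5204 CPM in OVX8_SCI7, 1778 to 7453 CPM in OVX2_SCI7 and 2365 to 6565 CPM in SCI7. Of 6 skeletal muscle markers 2 rose, Actn3 (2.01, edgeR adjusted p = 0.0153) and Myh4 (3.66, edgeR adjusted p = 0.0436). The call of Myh4, at 5.82 ± 7.13 CPM in OVX8_SCI7 (SD, n = 4), was lost in 16 of 22 alternatives. The call of Actn3 was lost in 3 of 23. The muscle sum was 4.63 to 64.8 CPM in OVX8_SCI7, 1.59 to 16.6 CPM in OVX2_SCI7 and 3.43 to 16.0 CPM in SCI7. Of 6 sensory ganglion markers 0 passed, with Prph at 0.74 (edgeR adjusted p = 0.388) and Calca at -0.85 (edgeR adjusted p = 0.473), and their summed level was 26.2 to 133 CPM in OVX8_SCI7, 35.7 to 608 CPM in OVX2_SCI7 and 21.3 to 124 CPM in SCI7.

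Of 7 astrocyte markers 1 fell, Gja1 (-0.63, edgeR adjusted p = 0.0219), while Aqp4 stood at -1.04 (edgeR adjusted p = 0.0530). The 7 had a median of -0.51, with 3 values above 0 and 4 below. The astrocyte sum was 9735 to 11387 CPM in OVX8_SCI7, 6372 to 14758 CPM in OVX2_SCI7 and 9986 to 12696 CPM in SCI7. Of 5 ependymal markers 1 rose, Foxj1 (0.73, edgeR adjusted p = 0.0277), which stood at -0.16 under the GC and length offset. Rarres2 was at 0.66 (edgeR adjusted p = 0.0747), and 3 of the 5 values were above 0 and 2 below. The ependymal sum was 36.9 to 55.0 CPM in OVX8_SCI7, 41.9 to 60.6 CPM in OVX2_SCI7 and 25.2 to 31.7 CPM in SCI7, without overlap between OVX8_SCI7 and SCI7. Of 7 lymphocyte markers 3 were tested and 1 rose, Cd8a (3.10, edgeR adjusted p = 0.0143), while Cd4 was at 1.36 (edgeR adjusted p = 0.127). Cd8a was near the floor, at 0.51 ± 0.24 CPM in OVX8_SCI7 and 0.053 ± 0.043 CPM in SCI7 (SD, n = 4 each). In the SCI7 libraries 3 counts correspond to 0.146 to 0.165 CPM. The call of Cd8a was lost in 3 of 21 alternatives, with values down to 0.39. The lymphocyte sum was 4.28 to 5.94 CPM in OVX8_SCI7, 3.50 to 11.2 CPM in OVX2_SCI7 and 1.09 to 2.62 CPM in SCI7, again without overlap between OVX8_SCI7 and SCI7.

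None of the fibroblast, oligodendrocyte precursor, endothelial and Schwann cell markers passed. The 6 fibroblast markers summed to 7830 to 14867 CPM in OVX8_SCI7, 851 to 27334 CPM in OVX2_SCI7 and 1007 to 7238 CPM in SCI7, with Pdgfrb at 0.74 (edgeR adjusted p = 0.242) and Col1a1 at 1.51 (edgeR adjusted p = 0.248). Every OVX8_SCI7 library lay above every SCI7 library in the fibroblast sum, while 4 of the 6 log2 fold changes were above 0 and 2 below. The 6 precursor markers summed to 749 to 926 CPM in OVX8_SCI7, 709.7 to 923 CPM in OVX2_SCI7 and 521 to 747 CPM in SCI7, also without overlap between OVX8_SCI7 and SCI7, with Olig1 at 0.52 (edgeR adjusted p = 0.0644) and Sox10 at 0.56 (edgeR adjusted p = 0.0795). The 5 endothelial markers summed to 335 to 411 CPM in OVX8_SCI7, 259 to 462 CPM in OVX2_SCI7 and 233 to 469 CPM in SCI7, with Cldn5 at 0.67 (edgeR adjusted p = 0.107) and Flt1 at -0.36 (edgeR adjusted p = 0.237). The 5 Schwann cell markers summed to 739 to 1302 CPM in OVX8_SCI7, 747 to 1691 CPM in OVX2_SCI7 and 513 to 1346 CPM in SCI7, with Prx at 0.82 (edgeR adjusted p = 0.132) and Pmp2 at -0.57 (edgeR adjusted p = 0.324). The share of all rows without overlap between OVX8_SCI7 and SCI7 was not computed. The marker sums, septin levels and septin shares without overlap therefore have no background beside them. Of all rows tested, 43.2% had an unadjusted p under 0.05 by edgeR in that comparison. The parts of all these cells in the septin values were not tested.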

How the data were processed

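Paired-end bulk RNA-seq of injured spinal cord was analysed in 12 libraries, 4 in each of the groups OVX8_SCI7, OVX2_SCI7 and SCI7, grouped by their labels. The submitters' processing notes list fastp 0.23.4, HISAT2 2.2.1, RSEM 1.3.3 and the GRCm39 build, and, for comparisons, edgeR, limma and DESeq2 1.42.0. The library kit and the strand setting of the counting are not given in the sources used here. The authors deposited expected counts (estimated counts that need not be whole, rounded here), TPM (used for levels between genes) and FPKM (used with the counts for effective lengths). A further 9 value columns of the deposited tables were left unused because their names fit none of the samples. The 525 rows without a symbol stayed in library sizes and tests. No 2 libraries of a group agreed within sampling noise (chi-square per gene at least 13.1).

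Counts were fitted with edgeR 4.0.16 in R 4.3.3: filterByExpr, TMM, all 12 libraries with the group as the only term, and the robust quasi-likelihood F-test. P-values were adjusted over 17820 rows (Benjamini-Hochberg) and called under 0.05. CPM used TMM-scaled library sizes. A standard error is the log2 fold change divided by the root of F. Septin2 was also fitted as 1 row after summing rows of the same symbol, an alternative chosen after seeing the data. Effective lengths were compared with exact two-sided permutation tests. GC content came from the longest coding transcript in GENCODE M21, an older build. Symbols were matched to RefSeq promoters by name. The fit was tested on simulated counts. Alternatives were DESeq2 1.42.0, its size factors, no filter, a stricter filter (a mean of 50 counts and 1 CPM in 4 libraries), limma-voom and limma-trend (limma 3.58.1, limma-trend on log2(TPM + 1)), the libraries of a comparison alone, a replicate block, a GC and length offset (splines with 5 degrees of freedom), and leaving out libraries.

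The members and the gene lists were chosen with earlier results of these data known. The named genes are all members, the 2 genes with the smallest p of each list described, and the 5 most alike genes by Pearson's r. One gene picked by this rule is not reported here. P-values measure the spread between animals as labelled, and counting precision is set by 18222809 to 31781728 counts a library.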

Additional observations from a re-analysis of the deposited data

Results flagged for a closer look

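Of 36 sets of 4 libraries examined (each septin row or sum in each group), 2 had a library far from the other 3, and chance alone marks about 1 in 20. Septin5 stood at 194 CPM in replicate 2 of OVX2_SCI7, where the other libraries of the group had 101 to 110.4 CPM, and the gap took 0.901 of the group's range. Septin2, summed over its rows, stood at 189 CPM in replicate 3 of SCI7, where the others had 346 to 361 CPM, and the gap took 0.916 of the range. Both exceed Dixon's critical value for 4 values. Leaving out replicate 3 of SCI7 is among the alternatives for Septin2, and the causes were not tested.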

How the results depend on the processing

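Calls of septins were few and depended on the setting. In OVX8_SCI7 against SCI7, 2 of the 9 members passed, 1 with no low-count filter, limma-trend or the replicate block, 3 with the 8 libraries alone (Septin9 at 0.77, edgeR adjusted p = 0.0360, among them), 0 with the GC and length offset with or without the block, 4 without replicates 1 and 2 of OVX2_SCI7, and 0 to 2 when 1 library was left out. In OVX2_SCI7 against SCI7, 0 passed, 1 with the stricter filter, DESeq2 or limma-voom, 4 without replicates 1 and 2 of OVX2_SCI7 (beside 38.8% of all rows), and 0 to 2 when 1 library was left out, the 2 without replicate 1 of OVX2_SCI7. In OVX8_SCI7 against OVX2_SCI7, 0 passed in every setting run. Of the 45 related genes, 9 passed in OVX8_SCI7 against SCI7, beside 27.5% of all rows. With limma-trend (16.7% of all rows) or the replicate block (19.0%) 4 passed. With the 8 libraries alone (beside 43.0% of all rows) or without replicates 1 and 2 of OVX2_SCI7 (beside 41.9% of all rows) 17 passed. With the offset, with or without the block, 0 passed. When 1 library was left out 0 to 13 passed (0 without replicate 2 of OVX8_SCI7), beside 0 to 37.2% of all rows. In OVX2_SCI7 against SCI7, 0 of the 45 passed, beside 0% of all rows. With the stricter filter 2 passed (beside 7.96% of all rows), and with DESeq2 9 (beside 20.1%). Without replicates 1 and 2 of OVX2_SCI7 13 passed (beside 38.8%). When 1 library was left out 0 to 11 passed, beside 0 to 34.7% of all rows. Over all rows, OVX8_SCI7 against SCI7 gave 4893 calls with edgeR, 6291 with DESeq2, 2973 with limma-trend, 3390 with the replicate block, 7426 with the 8 libraries alone and 0 with the offset. The causes were not tested.

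Some log2 fold changes changed sign, among them those of Cdc42ep4 and Foxj1, which had passed in OVX8_SCI7 against SCI7. With the GC and length offset they were, in OVX2_SCI7 over SCI7, -0.10 for Septin5, -0.047 for Septin8 and -0.024 for Septin9, in OVX8_SCI7 over SCI7, -0.042 for Septin4, -0.34 for Septin5, 0.21 for Septin6, -0.19 for Septin8, 0.016 for Septin11, -0.070 for Cdc42ep4, -0.12 for Stx1a, -0.23 for Prph, -0.35 for Olig1 and for Sox10, -0.18 for Cldn5 and -0.16 for Foxj1, and in OVX8_SCI7 over OVX2_SCI7, -0.24 for Septin5. With the offset and the replicate block they were, in the same order of genes and comparisons, -0.11, -0.056 and -0.036, then -0.035, -0.33, 0.22, -0.18, 0.058, -0.068, -0.10, -0.25, -0.33, -0.34, -0.15 and -0.16, then -0.22, and Pmp2 stood at 0.078 in OVX8_SCI7 over SCI7. The stricter filter gave -0.0039 for Septin6 in OVX2_SCI7 over SCI7 and -0.0068 for Septin8 in OVX8_SCI7 over SCI7. No filter gave 0.015 for Septin6 in OVX8_SCI7 over SCI7, and in OVX8_SCI7 over OVX2_SCI7 0.035 for Septin4, 0.016 for Septin8 and 0.011 for Septin3. Limma-trend gave -0.036 for Septin6 in OVX2_SCI7 over SCI7, and in OVX8_SCI7 over OVX2_SCI7 0.090 for Septin4, -0.059 for Septin5, 0.027 for Septin6, 0.057 for Septin8, 0.040 for Septin10 and 0.30 for Septin3. In the same comparison limma-voom gave 0.043 for Septin4 and 0.12 for Septin3, and the replicate block 0.015 and 0.00026. Without replicates 1 and 2 of OVX2_SCI7, OVX2_SCI7 over SCI7 gave -0.37 for Septin6 and -0.11 for Septin8, and OVX8_SCI7 over OVX2_SCI7 gave 0.36 for Septin4, 0.10 for Septin7, 0.34 for Septin6, 0.15 for Septin8, 0.067 for Septin10, -0.12 for Septin11, 0.79 for Septin3 and -0.11 for Septin9.

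Leaving out 1 library turned the sign of values with these ranges. In OVX2_SCI7 over SCI7 they were -0.14 to 0.16 for Septin6, -0.016 to 0.14 for Septin8 and -0.46 to 0.053 for Septin3. In OVX8_SCI7 over SCI7 they were -0.14 to 0.11 for Septin6, -0.011 to 0.070 for Septin8, -0.36 to 0.15 for Septin11 and -0.41 to 0.023 for Septin3. In OVX8_SCI7 over OVX2_SCI7 they were -0.20 to 0.12 for Septin4, -0.090 to 0.27 for Septin5, -0.51 to 0.059 for Septin7, -0.21 to 0.093 for Septin6, -0.11 to 0.040 for Septin8, -0.22 to 0.050 for Septin10 and -0.28 to 0.23 for Septin3. The Septin2 rows kept opposite signs in every setting run for OVX8_SCI7 over SCI7, at -2.28 to -1.37 for ENSMUSG00000116048 and 0.45 to 1.54 for ENSMUSG00000026276. They did not in OVX8_SCI7 over OVX2_SCI7, at -0.95 to -0.38 for ENSMUSG00000116048 and -0.0074 to 0.57 for ENSMUSG00000026276. The Septin2 sum also changed sign, at -0.93 to 0.0061 in OVX8_SCI7 over SCI7 and -0.21 to 0.056 in OVX8_SCI7 over OVX2_SCI7.

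The labels number the replicates 1 to 4 in each group, and the deviations of same-numbered libraries correlated at -0.63 to 0.50. These deviations also carry each library's GC trend, so they cannot decide whether the numbers pair the libraries. With the replicate block, Septin10 missed the threshold in OVX8_SCI7 against SCI7 (edgeR adjusted p = 0.0513) and Septin7 passed (edgeR adjusted p = 0.0242). A library holds 18222809 to 31781728 counts, so the spread between libraries and the division of reads between overlapping models stand beside depth as limits.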

Other observations

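Septin1, the remaining member of the Septin2 group and known from lymphocytes and other blood cells, was low throughout, at 2.98 ± 0.58 CPM in OVX8_SCI7, 2.93 ± 0.81 CPM in OVX2_SCI7 and 1.87 ± 0.42 CPM in SCI7 (SD, n = 4 each). Its log2 fold change was 0.67 for OVX8_SCI7 over SCI7 (edgeR adjusted p = 0.0717) and 0.65 for OVX2_SCI7 over SCI7 (edgeR adjusted p = 0.116).

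Read separately, the Septin2 rows resembled different genes across the 12 libraries. The row of ENSMUSG00000116048 was most like Cd164 (Pearson's r = 0.988), Dcaf17, Sike1, Csnk2a1 and Thoc1, and the row of ENSMUSG00000026276 was most like Emilin2 (0.981), Fmnl3, Eif4a1, Tatdn2 and Stard8. All points share libraries, groups and GC trends, so these values carry no test.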
